A study of Mus musculus with 70 samples.

Results

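Within the 60 dorsal hippocampus libraries taken from mice after memory training, the 15 libraries with the highest and the 15 with the lowest level of Fos were compared. Fos encodes a transcription factor subunit whose gene is switched on by neuronal activity. These 30 libraries were chosen by Fos itself, out of 70 libraries in the whole series, and sedentary replicate 6 was left out before the ranking, so that 59 trained libraries were ranked. The mice were adult male C57BL/6J, individually housed, with no transgene or drug in any group. The 6 trained groups had a 3 min session of object location memory (OLM) training 1 h before the hippocampus was taken, and the home cage group had neither running wheel nor training. Sedentary mice had no wheel. The exercise groups 0-0-2, 14-14-0, 14-7-2, 14-0-0 and 14-7-0 are named by their days of initial exercise, of sedentary delay and of reactivating exercise. Each group had 10 libraries, 5 from each of 2 harvest cohorts.

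Immediate early genes are transcribed within minutes of synaptic activity, because the transcription factors that start them, CREB and SRF, already sit in the nucleus and need only calcium and ERK signalling to act. Their first products are themselves mostly transcription factors of the Fos, Jun, Egr and Nr4a families, joined by effectors that act at the synapse, such as Arc. Phosphatases of the Dusp family and Sprouty proteins then shut ERK signalling off again, and secreted peptides and channels follow as late response genes. In the hippocampus these genes mark the neurons that were active during an experience.

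The promoters of 5 response genes are shown first, because they hold letter matches to the elements that CREB and SRF bind. Each is the RefSeq window from 250 bases before to 50 bases after a transcription start, in build GRCm38.p6 (the submitters' notes name mm10, the same assembly), on the minus strand except for Nr4a1. Capitals mark the CRE core bound by CREB (TGACG, on either strand) and the CArG box bound by SRF. They cover Fosb at chr7:19309996-19310295, Junb at chr8:84978699-84978998, Nr4a1 at chr15:101266596-101266895, Srf at chr17:46556113-46556412 and Dusp1 at chr17:26508423-26508722.
Fosb: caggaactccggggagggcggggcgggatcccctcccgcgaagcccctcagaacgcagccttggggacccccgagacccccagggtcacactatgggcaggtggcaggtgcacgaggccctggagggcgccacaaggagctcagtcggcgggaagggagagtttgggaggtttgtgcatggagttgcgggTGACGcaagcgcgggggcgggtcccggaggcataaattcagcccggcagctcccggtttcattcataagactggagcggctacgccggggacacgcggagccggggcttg
Junb: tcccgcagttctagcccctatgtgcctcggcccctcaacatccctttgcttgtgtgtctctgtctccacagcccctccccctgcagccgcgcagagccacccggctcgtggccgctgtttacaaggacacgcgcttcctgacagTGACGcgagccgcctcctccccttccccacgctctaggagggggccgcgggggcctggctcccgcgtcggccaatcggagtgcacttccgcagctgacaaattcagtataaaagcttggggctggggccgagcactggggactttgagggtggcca
Nr4a1: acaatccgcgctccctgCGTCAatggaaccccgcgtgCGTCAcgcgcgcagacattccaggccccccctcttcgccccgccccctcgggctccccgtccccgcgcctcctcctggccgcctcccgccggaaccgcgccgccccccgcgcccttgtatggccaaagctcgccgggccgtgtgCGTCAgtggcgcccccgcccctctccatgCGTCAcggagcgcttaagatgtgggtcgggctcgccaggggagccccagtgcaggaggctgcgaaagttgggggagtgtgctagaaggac
Srf: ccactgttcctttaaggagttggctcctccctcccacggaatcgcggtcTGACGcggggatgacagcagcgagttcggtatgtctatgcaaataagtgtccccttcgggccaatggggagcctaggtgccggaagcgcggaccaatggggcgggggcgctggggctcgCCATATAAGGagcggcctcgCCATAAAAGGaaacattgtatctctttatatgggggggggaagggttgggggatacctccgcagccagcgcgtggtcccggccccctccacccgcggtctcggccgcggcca
Dusp1: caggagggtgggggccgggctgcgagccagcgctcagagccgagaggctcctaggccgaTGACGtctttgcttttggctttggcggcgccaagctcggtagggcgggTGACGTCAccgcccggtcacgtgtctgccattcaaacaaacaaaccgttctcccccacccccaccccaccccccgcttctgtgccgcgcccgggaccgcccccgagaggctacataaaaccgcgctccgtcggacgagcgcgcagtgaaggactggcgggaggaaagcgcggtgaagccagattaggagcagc
The Nr4a1 window held 4 CRE cores, the Srf window held 2 CArG boxes beside 1 CRE core, and the Dusp1 window held 3 CRE cores, of which 2 overlap in the full palindrome TGACGTCA. Of the 10 rapid transcription factor genes that were higher in the high Fos libraries and had a promoter in the table, 7 held a CRE core, against 35.7% of the 9790 genes tested that had a promoter. Of all 18 rapid transcription factor genes with a promoter, higher or not, 13 held one. These shares are 70.0% and 72.2%, so the CRE core did not set the higher members of the list apart. The full palindrome was in none of these 10, against 3.63% of the genes tested. A CArG box was in 1 of the 10, Srf, against 1.56%, and the AP-1 element TGANTCA, to which Fos and Jun proteins bind, was in 1, Csrnp1, against 5.79%. Over all 32544 promoters, 20.9% held a CRE core, 1.80% the palindrome, 7.79% the AP-1 element and 1.64% a CArG box. These are matches of letters within the window at each start, and enhancers were not examined.

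Fos ranged from 5.16 to 16.3 FPKM in the high set, with a median of 5.94, and from 1.88 to 3.10 FPKM in the low set, with a median of 2.76. FPKM are fragments per kilobase of transcript, scaled to the mapped fragments of the library, so that levels of different genes can be set side by side. At the lower edge, 14-7-2 replicate 5 lay just inside the low set at 3.10 FPKM and 0-0-2 replicate 1 just outside it at 3.15. At the upper edge, 14-7-0 replicate 4 lay just inside the high set at 5.16 FPKM and 14-0-0 replicate 7 just outside it at 5.06. The plot of Fos by group shows that both edges fall within a continuous range of values.

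**Figure D1:**
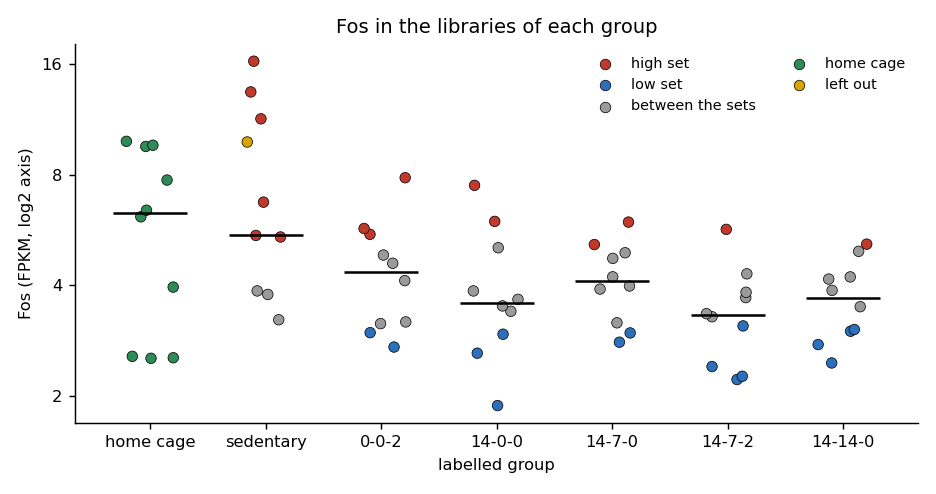
Fos level (FPKM, log2 axis) in each library of the 7 labelled groups, 10 libraries a group. Colours give the set each library fell into, and the black lines are group medians, without sedentary replicate 6. The 3 highest trained libraries are sedentary, and home cage libraries span the range from 2.53 to 9.86 FPKM.

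The groups were spread unevenly over both sets. The high set held 6 of the 9 ranked sedentary libraries, 3 of 0-0-2, 2 of 14-0-0, 2 of 14-7-0, 1 of 14-7-2 and 1 of 14-14-0. The low set held no sedentary library, 4 of 14-7-2, 4 of 14-14-0, 3 of 14-0-0, 2 of 14-7-0 and 2 of 0-0-2. The 3 highest values, 16.3, 13.4 and 11.4 FPKM, were all sedentary. Since group and set move together, the counts for the response lists are also given with values centred on the mean of the library's own group. Harvest cohorts were balanced, with 7 and 8 libraries of cohorts 1 and 2 in the high set and 8 and 7 in the low set.

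The mean of Fos was not above that of home cage mice in the trained mice, so that a high Fos level in these libraries is not by itself a mark of the training. The median was 3.86 FPKM in the 59 trained libraries and 6.27 FPKM in the 10 home cage libraries, where 3 libraries lay between 2.53 and 2.56 FPKM and 6 between 6.14 and 9.86 FPKM. The difference, trained minus home cage, was -0.37 on the log2 scale (SE 0.209), with an unadjusted p of 0.0835 and an adjusted p of 1.00 by limma's moderated test. Home cage libraries were not used in the choice of the sets, so the same genes could be examined there.

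The FPKM values carry no read counts. The study lists reads per sequencing sample, but under names that could not be matched to these libraries, so the depth behind each value was not used here. One library of the high set, 14-7-0 replicate 4, listed 10279 genes at 0, while the other 29 libraries listed between 6339 and 7199. As the whole dorsal hippocampus was measured, fewer cells of a type and less RNA per cell cannot be told apart.

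Of 12993 genes tested, Fos left out, 1777 were counted as higher in the high set, which is 13.7%, and 514 as lower, which is 3.96%. A gene counted as higher when the high library exceeded the low one in at least 80% of all pairs of a high with a low library, and as lower at 20% or less. No gene separated both sets completely. As Fos chose the libraries, these differences are a description and carry no p. Centred by group, 1454 genes (11.2%) were counted as higher, of which 1399 were among the 1777, and 3.02% of genes as lower. Without the sedentary libraries 14.7% of genes were higher.

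Of the 23 rapid transcription factors measured at a mean of 1 FPKM or more, 13 were higher, none was lower, and all 23 had a mean difference above 0. The median difference was 0.48 on the log2 scale, against -0.01 over all genes. The 13 are to be read against a background of 13.7% over all genes. Among genes from 55% to under 60% GC content, where the median of this list lay, the share was 36.2%, as described further on. The 4 listed factors below the minimum were Fosl1, Egr2, Atf3 and Maff. Centred by group 12 of the 23 were higher, and without the sedentary libraries (9 high, 15 low) also 12. Within harvest cohort 1 alone 15 of the 23 were higher, against 17.6% of all genes, and within cohort 2 alone 9, against 14.0%.

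Fosb, the closest relative of Fos, ranged from 1.65 to 5.28 FPKM in the high set (median 2.72) and from 1.28 to 2.21 in the low set (median 1.63). The high library was above the low one in 97.3% of pairs, and the mean difference was 0.79 on the log2 scale. Few libraries overlapped, although Fosb was not part of the choice. Junb, a dimer partner of Fos, differed most within the list. It ranged from 3.31 to 38.8 FPKM (median 24.8) in the high set and from 1.28 to 12.3 FPKM (median 3.87) in the low set, a difference of 2.36 with 94.7% of pairs. The other Jun genes were also higher, Jun by 0.64 and Jund by 0.98 on the log2 scale, each in 86.7% of pairs.

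Of the Egr zinc finger factors, Egr1 ranged from 36.1 to 99.7 FPKM (median 59.1) in the high set and from 32.1 to 54.0 FPKM (median 42.2) in the low set. Its mean difference was 0.58, with 87.1% of pairs, and the sets overlapped more than for Fosb. Egr3 was higher by 0.36 and Egr4 by 1.25 on the log2 scale. Nr4a1, an orphan nuclear receptor, had a median of 34.5 FPKM in the high set (24.4 to 55.6) and 20.2 FPKM in the low set (14.96 to 34.1), a difference of 0.73 with 91.1% of pairs. Nr4a2 differed by 0.49 and Nr4a3 by 0.27, and Nr4a3 missed the count at 79.1% of pairs.

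Ier2, Ier5, Csrnp1 and Srf complete the 13. Ier2, a short nuclear protein of the early response, differed by 1.24 with 93.8% of pairs, and its medians were 3.798 and 1.46 FPKM. Npas4, a factor specific to neurons and calcium entry, had medians of 1.80 and 1.56 FPKM and was not counted at 76.4% of pairs. Btg2 and Klf6 had nearly the same level in both sets, with differences of 0.01 and 0.04.

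**Figure D2:**
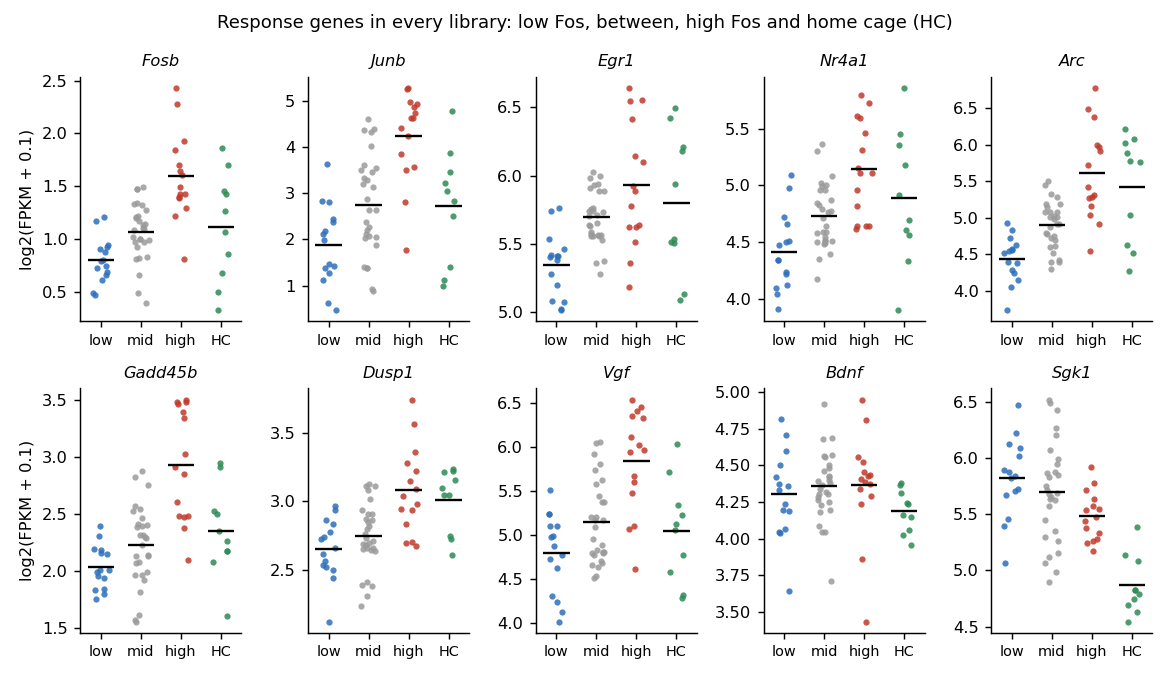
Level of 10 response genes on the scale log2(FPKM + 0.1), 1 point a library, in the low Fos libraries (n = 15), the trained libraries between both sets (n = 29), the high Fos libraries (n = 15) and the home cage libraries (n = 10); lines are means. Fosb and Arc are higher in the high set with little overlap. Junb is also higher, but its sets overlap from 3.31 to 12.3 FPKM. Bdnf has nearly equal means, and Sgk1 is lower in the high set and lowest in the home cage.

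Among 28 rapid effectors, 7 were higher and 1 was lower, with a median difference of 0.11 on the log2 scale. The 7 are to be read against 13.7% of all genes higher, and the 1 lower gene of 28 is near the 3.96% of all genes. When centred by group 5 of the 28 were higher, against 11.2% of all genes. Arc, which drives the removal of AMPA receptors from synapses, ranged from 23.3 to 109 FPKM (median 42.7) in the high set and from 13.2 to 30.3 FPKM (median 22.9) in the low set. Its difference was 1.18, with 96.9% of pairs, and only the lowest high libraries reached into the low range. Gadd45b, linked to DNA demethylation, had medians of 7.42 and 3.91 FPKM, a difference of 0.90 and the same share of 96.9% of pairs. Gadd45g differed by 0.78, Midn by 0.69, the clock gene Per1 by 0.55, Plk3 by 0.40 and Trib1 by 0.27.

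Several effectors known as activity genes were not counted as higher. Homer1 differed by 0.12 with 65.3% of pairs, Ptgs2 by -0.06 with 38.2%, and Plk2 by -0.12 with 32%. Homer1 was counted over all its transcripts, so that its short activity-induced form was not measured on its own. In the home cage libraries its slope on log2 Fos was 0.22 (SE 0.0569), with an adjusted p of 0.0865 by limma. Sgk1, a kinase induced by glucocorticoids, was the member counted as lower. Its median was 44.4 FPKM in the high set (36.0 to 60.2) and 57.1 FPKM in the low set (33.3 to 88.7), a difference of -0.34 with 19.6% of pairs. The share left the limit of 20% when values were centred by group (31.1%), when 14-7-0 replicate 4 was left out (25.8%) and when the trend with GC content described further on was removed (21.8%). It did so too without the sedentary libraries (22.2%) and within cohort 1 (23.2%), while within cohort 2 it was 14.3%. With the 5 low libraries of low choroid plexus level, described further on, Sgk1 differed by -0.11 with 38.7% of pairs. The sedentary group, which has no library in the low set, had the lowest trained median of Sgk1, 40.1 FPKM (34.6 to 52.3, n = 9).

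Bdnf, a neurotrophin needed for lasting memory, hardly differed. It ranged from 10.7 to 30.8 FPKM (median 21.1) in the high set and from 12.4 to 28.2 FPKM (median 20.1) in the low set, with a difference of 0.06 and 60.9% of pairs. Acvr1c, the activin receptor that the study went on to manipulate, had medians of 3.94 and 4.20 FPKM, with a difference of -0.12 and 41.3% of pairs. For both genes the sets overlapped over almost their whole range.

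Of 11 inhibitors of ERK signalling, 4 were higher, against 13.7% of all genes, and none was lower, with a median difference of 0.20 on the log2 scale. The nuclear phosphatases Dusp1 and Dusp5 differed by 0.43 and 0.62. Dusp1 ranged from 6.28 to 13.3 FPKM (median 8.13) in the high set and from 4.26 to 7.73 FPKM (median 6.22) in the low set, in 88.4% of pairs. The cytoplasmic phosphatase Dusp6 differed by 0.32 and Spry4 by 0.26. Centred by group, or without the sedentary libraries, 2 of the 11 were higher, near the 11.2% and 14.7% of all genes.

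Of 16 late response genes, 5 were higher, also when centred by group, and none was lower, with a median difference of 0.17. Over all genes 13.7% were higher, and 11.2% when centred by group. Vgf, the precursor of secreted neuropeptides, ranged from 24.4 to 92.7 FPKM (median 62.1) against 16.05 to 45.5 FPKM (median 29.1), a difference of 1.05 with 90.7% of pairs. Kcnj4, a potassium channel, differed by 0.77, the receptor Gpr3 by 0.65, Ptprn of secretory granules by 0.41 and Nptx1 of excitatory synapses by 0.24. The granule protein Scg2 differed by -0.06, with medians of 98.7 and 101 FPKM.

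The 20 genes with the largest difference among those counted as higher were mostly not response genes. All 20 had a GC content above the median of all genes, and 19 had a shorter transcript, the exception being Nptxr. Of the 20, Junb is the only one on the 4 response lists. Atp6v0c, the pore subunit of the vesicular proton pump, led with a difference of 4.70. It ranged from 1.86 to 1052 FPKM (median 848) in the high set and from 0.00108 to 798 FPKM (median 31.0) in the low set. Nptxr, a receptor for neuronal pentraxins, differed by 3.56 and Pcsk1n, which yields an inhibitor of a prohormone protease, by 3.11. Gm1673, Scand1, Prr7, C1qtnf4, Ier5l, Gpr27, Hist1h4i, Hist1h4k, Dpm3, Rpl36, Fbxl15, Rnaseh2c, Tpgs1, H1fx, Rprml and Gm20604 complete the 20, with differences from 1.60 to 3.25. In 6 of the 20 at least 1 low library listed the gene at 0. Scand1, Hist1h4i and Hist1h4k were also at 0 in 1 high library each. Atp6v0c, Nptxr and Gm20604 fell to 0.00108, 5.01e-05 and 8.37e-13 FPKM in the low set, far below the 0.1 added before the logarithm. Atp6v0c, Rpl36 and the histone genes have near-identical copies in the genome, so their values are uncertain. The study describes the removal of reads that fit several places, but whether this holds for the deposited FPKM is not stated.

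The transcripts of these 20 genes had a median GC content of 63.2% and a median length of 1200 bases, against 50.2% and 3189 bases over all genes. The extremes among the 32 genes of largest difference show the contrast. H1fx, a linker histone with the highest transcript GC content, 71.3%, lies at chr6:87980421-87981637 on the minus strand in 1 exon. Defb11, a defensin counted as lower, has the lowest, 43.5%, and lies at chr8:21905376-21906412 on the minus strand in 2 exons. The first 120 coding bases of each, from GENCODE vM21 on GRCm38, are given with G and C in capitals.
H1fx: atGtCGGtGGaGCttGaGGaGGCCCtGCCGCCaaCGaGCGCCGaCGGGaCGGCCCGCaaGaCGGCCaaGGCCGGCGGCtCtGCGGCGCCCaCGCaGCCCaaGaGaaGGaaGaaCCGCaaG
Defb11: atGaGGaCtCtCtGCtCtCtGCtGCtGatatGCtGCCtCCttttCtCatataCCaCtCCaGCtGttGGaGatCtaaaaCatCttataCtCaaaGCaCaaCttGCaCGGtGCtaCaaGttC
In H1fx 85 of the 120 bases are G or C, and in Defb11 54.

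The same property ran through the whole comparison. The median GC content was 57.5% in the 1777 genes counted as higher, 46.5% in the 514 counted as lower and 50.2% in all genes. Of the 605 genes with a GC content from 60% to under 65%, 61.3% were counted as higher and none as lower. Among the 2557 genes from 55% to under 60%, 36.2% were higher and 0.587% lower. The median GC content of the rapid transcription factors, 55.5%, lay in that range. Of the 2368 genes from 40% to under 45%, 0.802% were counted as higher and 6.46% as lower. The slope of a library's values on GC content, in log2 units per 10% GC, had a median of 0.11 in the high set (-0.13 to 0.46) and of -0.08 in the low set (-0.57 to 0.10).

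Removing the trend with GC from each library left 863 genes counted as higher, which is 6.68% of 12920, and 670 as lower, which is 5.19%. Of the 1777 genes first counted as higher 670 remained so, and of the 514 lower genes 283. Of the 20 genes with the largest difference 19 were still counted as higher. The correction came from 50 bins of GC content and stayed constant above the middle of the highest bin. It was therefore capped for the most GC-rich of these genes, and the part of GC content in their difference was not tested. Of the 61 genes at 65% GC or more, 27.9% were still counted as higher and 16.4% as lower. Atp6v0c then differed by 4.54, Nptxr by 3.19 and Pcsk1n by 2.88. Of the 12 genes with the smallest difference 10 were still counted as lower. Among the rapid transcription factors 11 of 23 were then higher, with a median difference of 0.35 on the log2 scale, and 9 of the first 13 were among them. Fosb differed by 0.64 with 94.7% of pairs, Junb by 1.83 with 95.6%, Ier2 by 0.80 with 91.1% and Arc by 0.85 with 96.9%. Egr1 missed the limit with 0.35 and 73.8% of pairs, and so did Jund, Egr4, Per1 and Dusp1. Srf, with a GC content of 64.4%, reversed from a difference of 0.30 and 88.0% of pairs to -0.27 and 16.9%. Of the rapid effectors 5 of 28, of the ERK inhibitors 4 of 11 and of the late response genes 3 of 16 were higher with the trend removed, among them Gadd45b by 0.69, Vgf by 0.49 and Gpr3 by 0.57. Homer1, with a transcript GC content of 36.9%, then differed by 0.23 with 84.9% of pairs. Ranking the libraries by the adjusted Fos level chose the same 15 high and 15 low libraries.

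**Figure D3:**
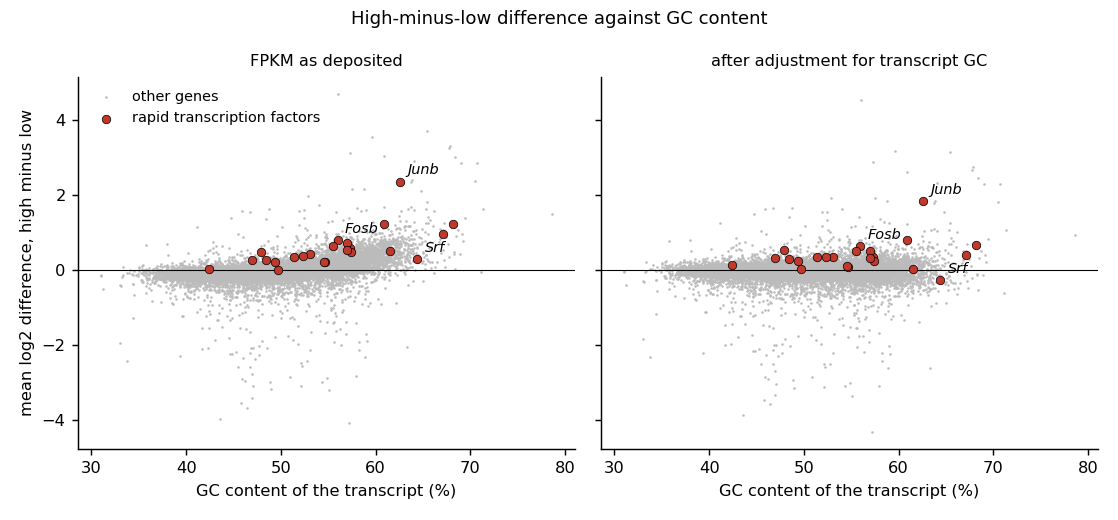
Mean log2 difference, high minus low Fos libraries (y axis), against GC content of each gene's longest coding transcript (x axis, %), before and after the trend with GC was removed from each library; 1 point a gene, the 23 rapid transcription factors in red. The upward bend above 55% GC is reduced in the right panel, where Junb and Fosb stay above 0 and Srf lies below. At 65% GC or more, 27.9% of genes are still counted as higher after the correction and 16.4% as lower.

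The genes lower in the high set by the largest margin included several of the choroid plexus, the epithelium that makes cerebrospinal fluid and lies against the hippocampus. Of the 12 genes with the smallest difference, Cldn2, Abca4, Enpp2 and Kl are known from this epithelium, and Enpp2 and Kl were on its marker list. Enpp2 ranged from 43.5 to 106 FPKM in the high set (median 66.5) and from 52.8 to 2871 FPKM in the low set (median 617), a difference of -2.23. Defb11 (-3.96), Snora70 (-3.17), F5, Pla2g5, Tuba1c, Zfp185, Slc24a5 and Smim5 complete the 12. Snora70 is a small nucleolar RNA that was listed at 0 in 5 libraries of the high set and 1 of the low set.

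All 15 choroid plexus markers had a mean difference below 0 (median -2.59), but only 2 were counted as lower, since the low set was split. The summed level of the 15 markers lay between 87.1 and 299 FPKM in every high library. In the low set it ranged from 89.1 to 25004 FPKM with a median of 3503, and 5 of the 15 low libraries lay within the range of the high set. With only those 5 as the low set, 1 of the 12 genes named was still counted as lower, Snora70 with -4.42, and 5 of the 12 had a mean difference above 0. These were Defb11 with 0.17, Cldn2 with 0.20, F5 with 0.22, Tuba1c with 0.080 and Enpp2 with 0.024. Kl differed by -0.11 on the log2 scale. With these 5 low libraries 14 of the 23 rapid transcription factors were higher, against 12.3% of all genes. The part of the choroid plexus level in the other differences was not tested.

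**Figure D4:**
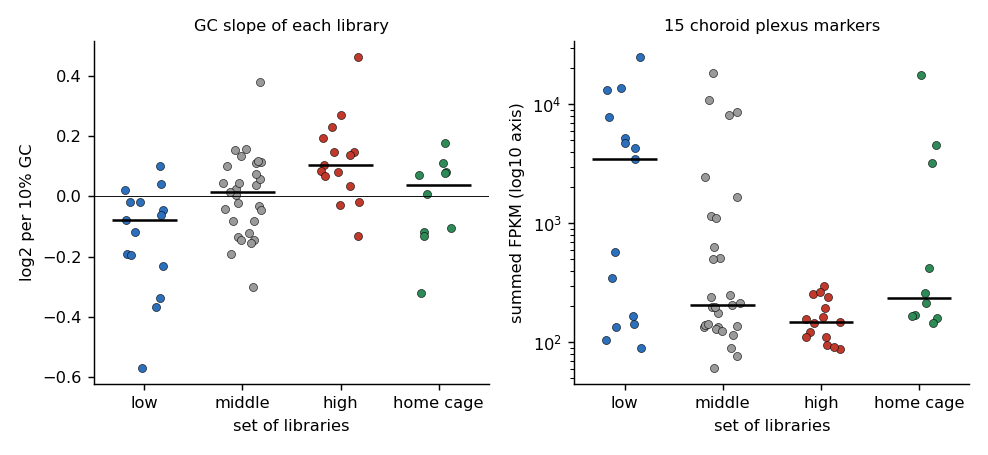
Left, slope of each library's values on transcript GC content (log2 per 10% GC); right, summed FPKM of 15 choroid plexus markers (log10 axis), by set of libraries; lines are medians. The high set has a median GC slope of 0.11 against -0.08 in the low set, and its choroid plexus sums reach at most 299 FPKM.

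Other cell type markers differed less, and their counts are to be read against 13.7% of all genes higher and 3.96% lower. Of 10 markers of inhibitory neurons, 2 were higher, the GABA transporter Slc32a1 by 0.78 and somatostatin (Sst) by 0.61, and their summed level had medians of 822 and 609 FPKM. Of 11 microglia markers 4 were higher, led by the complement genes C1qc and C1qa, and 1 of the 11 after the GC trend was removed, when 6.68% of all genes were. The defining markers of CA1 (8 genes) and CA3 (9 genes) pyramidal cells had no member counted in either direction, and of 14 markers of dentate gyrus granule cells 1 was higher. Mean differences lay above 0 for 8 CA1, 7 CA3 and 4 dentate gyrus markers, and for 6281 of the 12993 genes. Summed levels had medians of 273 and 218 FPKM (high and low) for CA1 and 479 and 418 for CA3. For dentate gyrus the medians were 316 and 318 FPKM, and all 3 ranges overlapped between the sets. None of the 13 oligodendrocyte markers was counted, and the summed level of the 9 astrocyte markers had medians of 1196 and 1162 FPKM. Of the striatum and thalamus lists no gene was counted, of the neocortex list Cux2 was higher, and of 9 endothelial markers Cldn5 was higher and Slco1a4 lower. The blood list (5 genes) and the meninges list (8 genes) had no gene counted. The summed level of the meninges list had a median of 28.3 FPKM in the high set (17.5 to 155) and 77.6 FPKM in the low set (18.2 to 253). Each marker of dentate gyrus, CA1 and CA3 that was tested was above 0 in at least 1 library of each set.

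The stress, clock and metabolic lists are to be read against the same shares. Of 14 glucocorticoid-responsive genes 3 were higher (the metallothionein Mt1 by 0.88, Ddit4 by 0.43 and Per1) and 1 was lower (Sgk1). Of 16 clock genes 3 were higher, led by Nr1d1 with 0.66. Of 16 heat shock genes 5 were higher, among them Hspa1a by 0.67 and Dnajb1 by 0.29. None of 14 endoplasmic reticulum chaperones was counted in either direction, and of 18 cholesterol synthesis genes 1, Mvk, was higher.

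Whether the same genes follow Fos in libraries outside both sets was tested first in the 10 home cage libraries. There 23 genes had a positive slope on log2 Fos at an adjusted p under 0.05, which is 0.177% of 12993, and 5 a negative slope, 0.0385% (limma, Benjamini-Hochberg over all genes). Of the 23, 21 were also counted as higher in the high Fos libraries, where 13.7% of all genes were. Of the 5, 3 were counted as lower, where 3.96% of all genes were. The home cage slopes also rose with GC content. Their median was -0.04 in the 2368 genes from 40% to under 45% GC and 0.26 in the 605 from 60% to under 65%. The part of this shared trend in the overlap was not tested. At an unadjusted p under 0.05, 13.0% of genes had a positive and 6.69% a negative slope. Of the 13 rapid transcription factors higher in the high set, 13 had a positive home cage slope. Adjusted over all genes 3 of them passed, and 10 did so without adjustment. Of all 1777 genes counted as higher, however, 97.3% had a positive home cage slope and 58.5% passed without adjustment, so a positive slope does not set the members apart. Of the 7 rapid effectors 3 passed after adjustment, of the 4 ERK inhibitors 1 and of the 5 late response genes none, and each of these 16 genes had a positive slope.

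Arc followed Fos most closely. In the home cage libraries it ranged from 19.3 to 73.8 FPKM (median 54.2), and its slope was 0.88 (SE 0.0534), so that a doubling of Fos went with a rise of 0.88 on the log2 scale. Its adjusted p was 0.000109, and with each home cage library left out in turn it stayed between 0.000273 and 0.00173. With the GC trend removed the slope was 0.69 and the adjusted p 0.0182. With Fos replaced by its rank, no gene passed, and Arc had an adjusted p of 0.111.

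Fosb rose with a slope of 0.59 (SE 0.0827) and an adjusted p of 0.0403, and Egr1 with 0.58 (SE 0.0841) and 0.0415. In the 3 home cage libraries of lowest Fos, Fosb was 1.15, 1.31 and 1.498 FPKM, and in the 3 of highest Fos it was 2.64, 3.15 and 3.54. Per1, Dusp6, Srf and Midn also passed, with slopes of 0.42, 0.33, 0.35 and 0.48. With the GC trend removed these 4 slopes were 0.21, 0.35, 0.038 and 0.27. Junb had the steeper slope of 1.31 (SE 0.246) but an adjusted p of 0.0609. Gadd45b, Jund and Bdnf had slopes of 0.26, 0.17 and 0.05 and did not pass. These calls rest on few libraries: without replicate 0, 2, 4, 6, 8 or 9 only 1 gene had a positive slope at an adjusted p under 0.05, and without replicate 3, which has a choroid plexus sum of 17580 FPKM, 397 had. With the GC trend removed 2 genes passed, Arc and Fbxo46, the latter chosen after its values were seen.

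**Figure D5:**
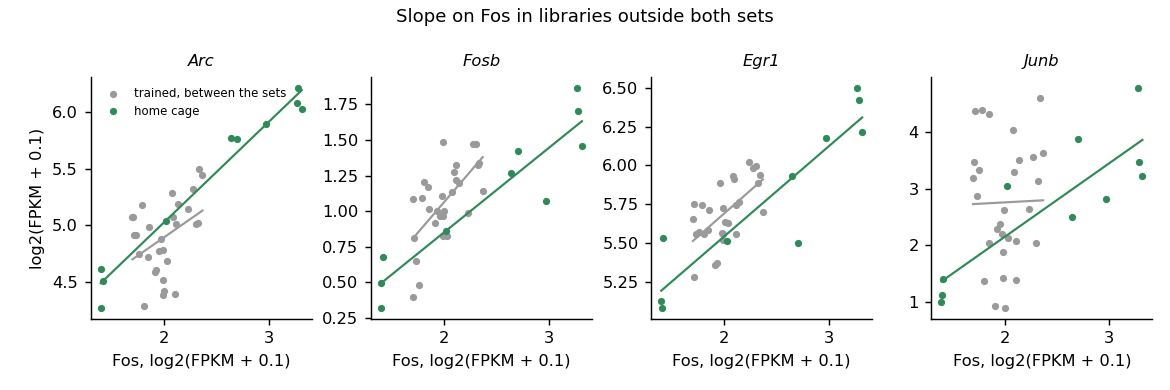
Arc, Fosb, Egr1 and Junb (y axis) against Fos (x axis), both as log2(FPKM + 0.1), in the 10 home cage libraries and the 29 trained libraries between the sets, with least-squares lines. Home cage points for Arc lie close to a line of slope 0.88, and the trained libraries span a narrower range of Fos.

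The 29 trained libraries between both sets span only 3.15 to 5.06 FPKM of Fos. No gene passed an adjusted p of 0.05 there by limma's moderated test, and 3.19% of genes had a positive and 5.97% a negative slope at an unadjusted p under 0.05. Fosb had the fourth smallest p of all genes, with a slope of 0.86 (SE 0.196), an unadjusted p of 0.000143 and an adjusted p of 0.420. Egr1 had a slope of 0.59 (SE 0.143) with an unadjusted p of 0.000276, and Arc one of 0.64 (SE 0.267) with 0.0232. Junb, which differed most between the sets, had a slope of 0.10 (SE 0.967). Bdnf and Acvr1c had slopes of -0.53 and -0.52 with unadjusted p of 0.00889 and 0.0216, and both had adjusted p of 0.542. With the GC trend removed these slopes were -0.35 and -0.31, with unadjusted p of 0.0390 and 0.119. In the home cage libraries Acvr1c had a slope of 0.26 with an unadjusted p of 0.0481 and an adjusted p of 0.250, the opposite sign. Whether these slopes differ from those of the home cage libraries was not tested.

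Trained and home cage libraries were compared last. Of the 59 trained libraries 50 came from mice that had also exercised and 9 from sedentary mice, so that training and exercise cannot be told apart in this comparison. By limma's moderated test 6 genes were higher in the 59 trained libraries, which is 0.0462% of 12994, and 2 were lower, 0.0154%. At an unadjusted p under 0.05 the shares were 2.76% and 1.89%. No rapid transcription factor passed in either direction, and the median difference of the 23 was -0.10. Arc had a difference of -0.46 (SE 0.205, unadjusted p 0.0295 by limma, adjusted p 1.00). With the GC trend removed it was -0.50 (SE 0.161), with an unadjusted p of 0.00274 and an adjusted p of 0.324.

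Of the 6 genes higher in trained libraries, 4 were on the list of 14 glucocorticoid-responsive genes, none of which was lower. Sgk1 ranged from 29.7 to 91.5 FPKM (median 51.1) in trained libraries and from 23.2 to 41.8 FPKM (median 27.9) in the home cage, a rise of 0.81 (SE 0.126, adjusted p 8.65e-05). Nfkbia, the inhibitor of NF-kappaB, rose by 0.49 (SE 0.0746, adjusted p 8.65e-05), Arrdc2 by 0.45 and Tsc22d3, which encodes the anti-inflammatory protein GILZ, by 0.34, both with an adjusted p of 0.00971. The other 4 genes that passed, named after their values were seen, were Mc4r and Plekhf1, which rose, and Zfp36l1 and Igfbp5, which fell. Sgk1 was the rapid effector counted as lower in the libraries of highest Fos, while Nfkbia, Arrdc2 and Tsc22d3 differed between the Fos sets by 0.14, -0.03 and 0.15. When only sedentary libraries were set against the home cage, which leaves training without exercise, no gene passed in either direction, 409 passed at an unadjusted p under 0.05, and Sgk1 differed by 0.53 with an adjusted p of 0.782. The median of Sgk1 was 40.1 FPKM in sedentary mice and from 46.6 to 60.5 FPKM in the exercise groups.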

How the data were processed

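RNA-seq of mouse dorsal hippocampus gave 70 libraries. The authors describe aligning reads with ELAND and Bowtie and keeping uniquely aligned reads. They also describe FPKM values obtained from the read files by the Tuxedo protocol. The deposited FPKM values per gene were made with Cuffnorm on mm10, and whether the filter for unique reads applies to them is not stated. Versions of Bowtie and Cuffnorm are not given in the sources used here. Counts were not used, and the study's list of reads per sequencing sample could not be matched to replicates. Values were taken as log2(FPKM + 0.1), over genes that averaged 1 FPKM or more across the 70 libraries. The members, gene lists and tests were chosen with earlier results of these data known. High and low Fos libraries were described by mean differences and the share of pairs, without a test. Slopes on log2 Fos, and trained against home cage libraries, were tested with limma 3.58.1 in R 4.3.3 with Benjamini-Hochberg adjustment over all genes, after a check on simulated data. In the home cage slopes, p-values measure the spread between libraries labelled as replicates. The main fits of the other tests had no term for exercise group, so their spread also holds differences between groups. GC content came from GENCODE vM21, and its trend was removed from each library by an alternative chosen after seeing the data. The genes described singly were the 20 with the largest and the 12 with the smallest difference, beside the members of the lists. Sedentary replicate 6 was left out of all fits unless stated.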

Additional observations from a re-analysis of the deposited data

Results flagged for a closer look

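In 7 of 37 sets of 10 or fewer libraries from 1 labelled group, a single library stood apart from the others, where chance flags about 1 in 20, or 1.85 sets. All 7 came from home cage replicates 8 and 3, so they are not separate events and are no test against chance. The 37 sets did not cover the labelled groups evenly, so no weight is put on the group in which the flags lie. Replicate 8 was highest in Jun with 40.1 FPKM (others 17.8 to 27.4), Junb with 27.5 (1.89 to 14.6), Jund with 26.4 (6.76 to 13.8), Egr4 with 11.4 (1.47 to 6.34) and Pcsk1n with 61.3 (1.46 to 24.2). Replicate 3 was highest in Kl with 104 FPKM (5.68 to 34.4) and Enpp2 with 1777 (61.2 to 666).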

How the results depend on the processing

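The count of genes higher in the high set (1777) was 863 with the GC trend removed, also when libraries were ranked by the adjusted Fos, and 958 with GC and length removed. The count of lower genes (514) was 267 at a mean of at least 5 FPKM, 823 scaled by median ratio, 955 after quantile normalization, 1132 with 10 libraries in each set, 1128 and 818 in cohorts 1 and 2 alone, 778 without the sedentary libraries and 841 with the 5 low libraries of low choroid plexus level. Rapid transcription factors counted as higher were 20 with 10 libraries in each set (18.3% of all genes), and 9 with 20 libraries in each set (10.6%) or in cohort 2 (14.0%). Srf reversed to -0.27 with GC removed (-0.26 with GC and length), and with the 5 low libraries Enpp2 reversed to 0.024, Defb11 to 0.17, Cldn2 to 0.20, F5 to 0.22 and Tuba1c to 0.080.

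Home cage genes with a positive slope (23) were 14 and 11 at means of at least 0.1 and 5 FPKM, 7 scaled by median ratio, 1 after quantile normalization, 2 with GC removed, 6 with cohort as covariate, 1 without the 2 libraries farthest from the Fos median and 0 on ranks. Genes with a negative slope (5) were 1, 2, 1, 0, 0, 1, 0 and 0 in the same order, and 8 with GC and length removed. Leaving out each home cage library gave 1 to 397 positive and 0 to 69 negative slopes, the highest without replicate 3.

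Genes up with training (6) were 3 at a mean of at least 5 FPKM, 10 with GC removed, 11 with GC and length removed and 0 with sedentary libraries only. Genes down (2) were 4 with pseudocount 1 or median ratio, 10 with GC removed, 12 with GC and length removed, 5 with cohort, 1 with sedentary replicate 6 kept and 0 with sedentary libraries only. With a replicate block 9 genes were up and 6 down, but correlations of same-numbered deviations ran from -0.30 to 0.71, so the numbers were not taken as pairs. The causes of these shifts were not tested. Depth could not be matched to libraries, so differences in low genes cannot be weighed by counts.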
